A study of Mus musculus with 2 samples.

Results

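Voltage-gated and potassium channel genes encode the proteins that set and change the voltage across a cell's membrane. The set described here was chosen by gene symbol: every feature whose symbol starts with Kcn (potassium channels and their accessory subunits), with Scn followed by a digit and a or b (sodium channels), or with Cacna1, Cacna2d, Cacnb or Cacng (calcium channel subunits). The rule took 139 of the 32285 features counted, and 136 of them had at least 1 UMI (a tagged RNA molecule counted once) in the 2 libraries together. By subunit type they were 40 voltage-gated potassium channel alpha subunits, 12 of their accessory subunits, 15 inward rectifiers, 14 two-pore domain channels, 12 calcium- or sodium-activated potassium channel subunits, 10 sodium channel alpha and 4 beta subunits, 10 calcium channel alpha1 subunits, 8 calcium channel auxiliary subunits, 8 gamma subunits (among them the TARPs, which are auxiliary subunits of AMPA-type glutamate receptors) and 6 others, such as the noncoding Kcnq1ot1.

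As background, voltage-gated sodium and calcium channels open when a cell depolarises and let it fire or take up calcium, and voltage-gated potassium channels bring the voltage back. Inward rectifiers and two-pore domain channels hold the resting potential, which in glia lets potassium released by neurons be cleared and in vessels links metabolism to tone. The pore is formed by alpha subunits, and auxiliary subunits change where the channel sits and how it gates.

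The cells came from whole brains of C57BL/J mice at postnatal day 10, in 2 libraries of 1 group that carry the replicate numbers 1 and 2, with no treatment and no control. The series names 6 mice without tying them to libraries. The p-values rest only on how cell classes differed between these 2 libraries once the overall library difference was taken out. That spread was estimated over all classes of a fit together, not for the class named, and may be technical. A droplet kit that reads the 3′ end of each transcript was used, and levels are given as CPM: a gene's UMIs divided by all UMIs of its class and library and scaled to the same fixed total in each. These counts are not divided by gene length and each gene's 3′ end can be captured with another efficiency, so levels are compared between classes for 1 gene, and shares within a family are shares of UMIs. Every pair of values below is library 1 and then library 2.

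There were 12978 barcodes and 51452085 UMIs in library 1, against 19508 barcodes and 45532691 UMIs in library 2, and 90 barcode sequences occurred in both. After filtering, 11861 and 14067 cells fell into 29 clusters, of which 25 could be named from marker genes and merged into 21 classes. Class names rest on resemblance to marker lists that hold no channel gene, and each should be read as "-like"; microglia markers, for example, summed to 14290 and 12525 CPM in microglia. The channel genes made up 0.110% and 0.0907% of all UMIs. The libraries differed in makeup: microglia numbered 91 and 1949, mural cells 528 and 69, and hemoglobin-type erythroid markers summed to 3.84 and 4880 CPM in Cajal-Retzius cells, 0 and 5646 CPM in Lhx6 interneurons, and 0.479 and 6288 CPM in ependymal cells. The part of these differences in the results was not tested. In each comparison a gene was called when the adjusted p of edgeR's quasi-likelihood test was under 0.05, the fitted fold change was at least 2 and the CPM difference had the same direction in both libraries. The fit averages logarithms over classes and can give a large fold where CPM averages lie close, so the count that was also at least 2-fold by CPM in both libraries is given beside it. Channel genes and their partner genes were kept out of the genes used for clustering, but the classes were drawn from the same cells, so the p-values are too small as evidence.

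Summed over all members, Cajal-Retzius cells had the highest channel gene level of the 19 classes with at least 25 cells per library, with 3819 and 3421 CPM. Cajal-Retzius cells are early-born neurons of the outermost cortex and hippocampus. Oligodendrocyte precursors came next with 1717 and 1625 CPM, then Prokr2 Pbx3 neuroblasts with 1698 and 1603 CPM and Lhx6 interneurons with 1554 and 1692 CPM. These 3 classes overlapped. Microglia had 387 and 278 CPM, endothelial cells 366 and 315 CPM and border macrophages 119 and 171 CPM. The number of members at 10 CPM or more in both libraries was 41 in Cajal-Retzius cells, 35 in granule-type neurons, 33 in oligodendrocyte precursors, 14 in mural cells, 6 in microglia and 3 in border macrophages. The two-pore domain channel Kcnk2 was seen across most neural classes. The noncoding Kcnq1ot1 was seen across neural and other classes, with 58.0 and 42.0 CPM in microglia and 43.4 and 42.1 CPM in mural cells. Some other members were seen mainly in 1 class.

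**Figure D1:**
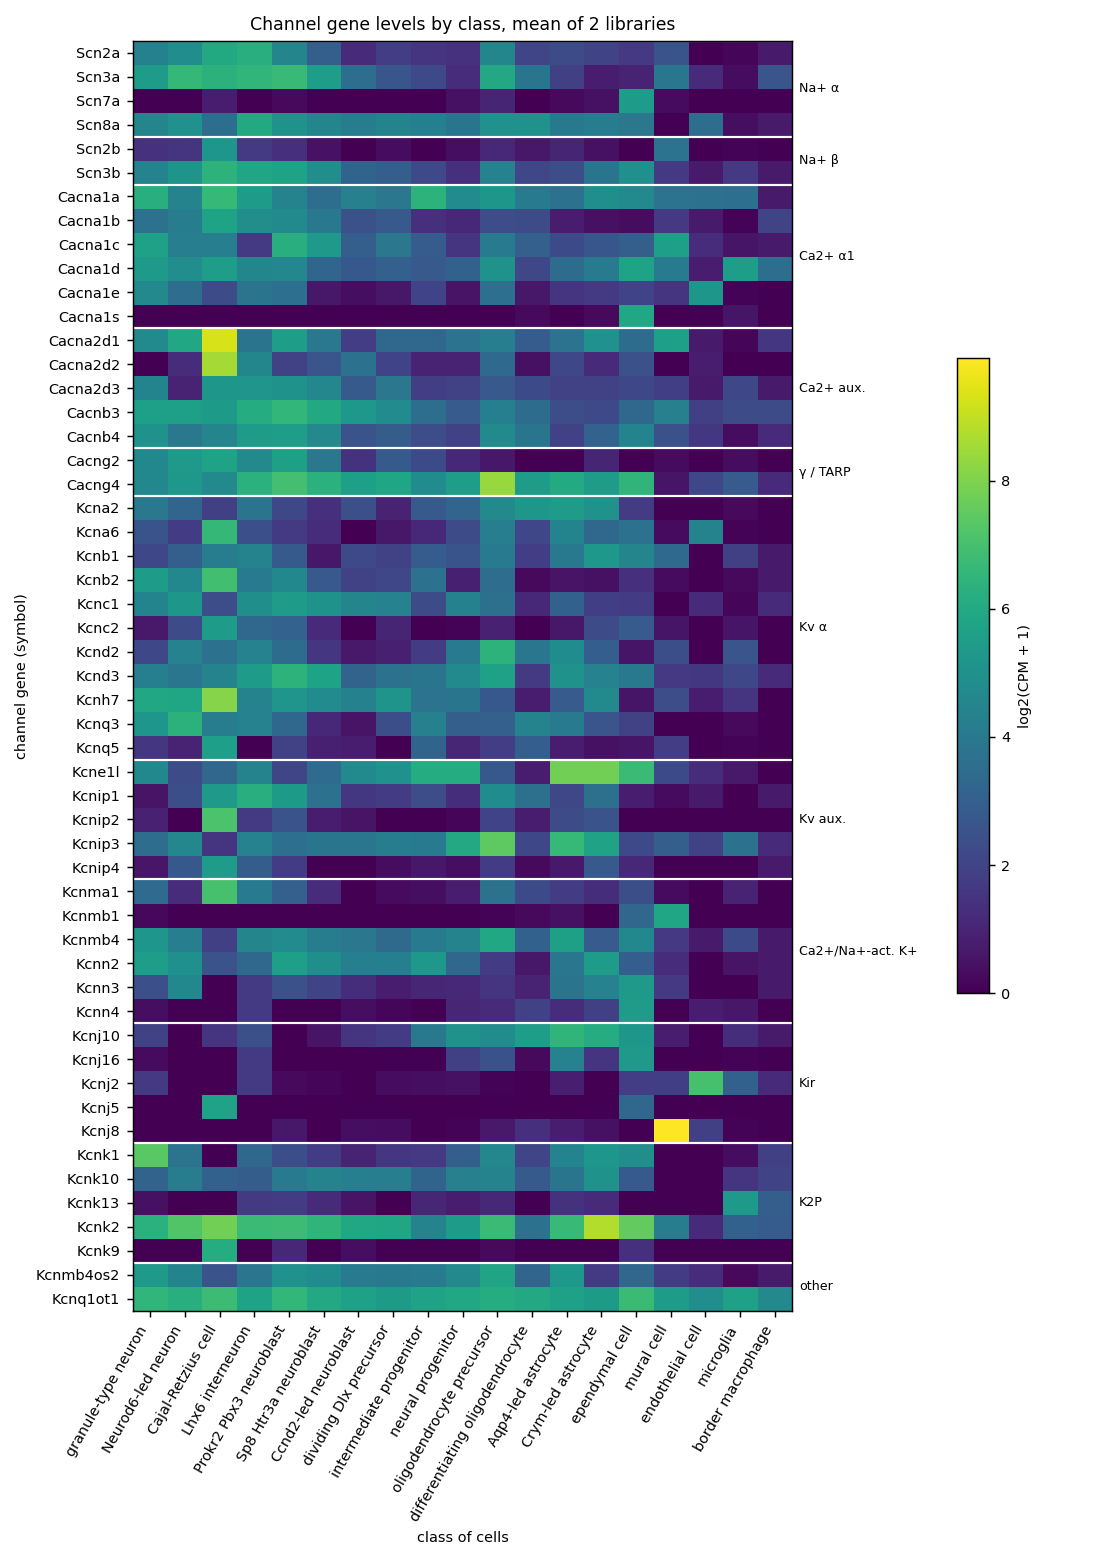
Heat map of 53 channel genes with a mean of at least 30 CPM in some class, in 19 classes; colour is log2(CPM + 1) of the mean of both libraries, and white lines part the subunit families. Single bright cells mark genes high in 1 class, such as Kcnj8 in mural cells, while rows such as Kcnk2 are bright across most neural classes.

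Neurons had higher levels of many sodium, calcium and voltage-gated potassium channel genes than the glial, vascular and immune classes. The neuron side held granule-type neurons (985 and 660 cells) and neurons led by Neurod6 (199 and 147 cells). Both clusters scored highest on the marker list of immature granule neurons. They were named apart because Prox1 stood out in granule-type neurons, and Neurod6 without Prox1 in Neurod6-led neurons. The other side held oligodendrocyte precursors, 2 astrocyte classes, ependymal, mural and endothelial cells, microglia and border macrophages. Of 93 members tested, 36 were higher in neurons (38.7%, against 14.4% of all 14035 genes tested) and 1 was lower (1.08%, against 13.4%). By CPM at least 2-fold in both libraries the counts were 29 higher (10.2% of all genes) and 1 lower (11.6% of all genes). The median log2 fold change was 1.61 over members and -0.07 over all genes.

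Among sodium channel alpha subunits, 4 of 5 tested were higher in neurons. Scn3a, the alpha subunit best known from the embryonic and newborn brain, had 68.7 and 70.4 CPM in neurons, against 10.3 and 11.5 CPM in the other classes (log2 fold change 4.15 ± 0.20 SE, adjusted p = 3.5e-90). Scn2a, which carries early action potentials in excitatory neurons, had 20.4 and 26.8 CPM in neurons, against 4.92 and 4.43 CPM (3.60 ± 0.37, adjusted p = 5.1e-21). Both libraries gave the same order. The other side is a mean over unlike classes, and 1 of them, oligodendrocyte precursors, lay near neurons for both genes. It had 59.6 and 64.9 CPM of Scn3a. Its Scn2a count was 154 and 58 UMIs, where 1 UMI was 0.152 and 0.371 CPM. The count of members called lower, 1, was not stable: under 3 of the alternatives tried, no member was lower.

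Of 9 calcium channel alpha1 subunits tested, 6 were higher in neurons. Cacna1b, the N-type channel of presynaptic terminals, had 11.7 and 18.0 CPM in neurons, against 1.85 and 0.987 CPM (4.06 ± 0.45, adjusted p = 1.1e-18). Cacna1a, the P/Q-type channel of synapses, had 51.4 and 43.3 CPM, against 18.2 and 16.9 CPM (1.51 ± 0.27, adjusted p = 1.0e-07). This Cacna1a value comes mostly from granule-type neurons, at 78.1 and 70.2 CPM. Neurod6-led neurons, given below, lay near the mean of the other classes. Of 7 auxiliary subunits, 4 were higher, among them the beta subunit Cacnb3 with 51.3 and 43.4 CPM in neurons, against 7.99 and 8.09 CPM. The largest change of the comparison was in Cacng2, which encodes stargazin, the TARP that brings AMPA receptors to synapses: 26.7 and 37.0 CPM in neurons, against 0.199 and 0.325 CPM (7.24 ± 0.45, adjusted p = 7.7e-58). For Cacng2 the mean levels of the 2 sets of classes did not come near each other in either library.

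Of 24 voltage-gated potassium channel alpha subunits, 9 were higher in neurons. Kcnq3, a subunit of the M-current channel that damps repeated firing, had 53.5 and 64.3 CPM in neurons, against 3.20 and 4.76 CPM (6.12 ± 0.33, adjusted p = 2.1e-76). Kcnb2, a delayed rectifier, had 29.2 and 36.9 CPM, against 1.53 and 1.96 CPM (5.53 ± 0.44). Kcnh7, of the ERG family, had 59.6 and 55.9 CPM, against 4.84 and 6.22 CPM (5.13 ± 0.28), and Kcnc1, a channel of fast-firing neurons, had 24.9 and 33.1 CPM, against 2.83 and 3.86 CPM (4.07 ± 0.32). All 4 were at least 2-fold higher in both libraries. Of the 30 partner genes listed for this work (pore relatives, anchors and ion pumps that act with these channels), 29 were tested: 15 were higher in neurons and 1 lower. Ank3, whose product ankyrin-G anchors sodium and Kcnq channels at the axon start, had 214 and 231 CPM in neurons, against 19.0 and 18.4 CPM (4.90 ± 0.16).

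Granule-type neurons differed from Neurod6-led neurons in calcium channels and in 1 two-pore domain channel. Of 93 members, 14 were higher in granule-type neurons (15.1%, against 3.16% of all genes) and 3 lower (3.23%, against 1.68%), and the median log2 fold change was 0.21 over members and 0.18 over all genes. By CPM at least 2-fold in both libraries, 11 were higher (2.09% of all genes) and 2 lower (1.61% of all genes), and DESeq2 called 6 higher. Kcnk1, a two-pore domain channel of weak inward rectification, had 175 and 156 CPM in granule-type neurons, against 11.4 and 13.7 CPM in Neurod6-led neurons (4.03 ± 0.30, adjusted p = 6.4e-37). It made up 67.5% and 61.6% of the two-pore domain UMIs of granule-type neurons.

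Of 9 alpha1 subunits, 4 were higher in granule-type neurons. Cacna1a had 78.1 and 70.2 CPM, against 24.7 and 16.4 CPM (2.09 ± 0.30, adjusted p = 9.2e-10). Cacna1c, an L-type channel that couples activity to gene expression, had 51.5 and 48.1 CPM, against 19.0 and 16.4 CPM (1.75 ± 0.34, adjusted p = 1.6e-05). Cacna1g, a low-threshold T-type channel, had 20 and 23.0 CPM in granule-type neurons and no UMI in Neurod6-led neurons in either library, so it was at least 6.39-fold higher, set against 3 counts over the Neurod6-led group. Cacna2d3, an alpha2delta subunit, had 20.3 and 21.6 CPM, against 1.90 and 0 CPM (4.42 ± 0.86, adjusted p = 1.8e-05). With Cajal-Retzius cells and Lhx6 interneurons added to the other neurons it was 1.27 and no longer called.

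Lower in granule-type neurons were Kcnd2, the A-type channel of dendrites, with 2.89 and 3.97 CPM, against 20.9 and 19.1 CPM (-2.31 ± 0.53, adjusted p = 5.0e-04), Cacna2d1 with 22.0 and 30 CPM, against 70.2 and 51.9 CPM (-1.03 ± 0.27, adjusted p = 0.0037), and Kcnn3, a small-conductance calcium-activated channel, with 3.76 and 4.86 CPM, against 11.4 and 35.5 CPM (-2.08 ± 0.54, adjusted p = 0.0034). Cacna2d1 lost its call where clustering genes and markers were tested too. With Cajal-Retzius cells and Lhx6 interneurons added to the neurons they are set against, Kcnn3 was 1.52 and not past the threshold (adjusted p = 0.46) and Kcnma1, the large-conductance calcium-activated channel, was -0.16 (adjusted p = 0.99) where it had been 3.38, with 10.1 and 10.2 CPM in granule-type neurons, against 0 and 2.73 CPM. Kcnma1 was also not called by DESeq2 (adjusted p = 0.23), with doublets kept (0.084) or at clustering resolution 2 (log2 fold change 0.34, adjusted p = 0.84). Nor was Kcnn3 called at resolution 2 (-1.48, adjusted p = 0.057) or under stricter cell filters (-0.54, adjusted p = 0.87). Under the stricter filters an Lhx6 interneuron class of 187 and 119 cells was part of the other neurons.

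Cajal-Retzius cells differed from the other neurons in members of most families: 7 higher and 3 lower of 26 voltage-gated potassium channel alpha subunits, 3 higher of 7 calcium channel auxiliary subunits, 3 higher and 3 lower of 11 calcium- or sodium-activated subunits, 2 higher and 1 lower of 10 two-pore domain channels and 1 higher of 9 inward rectifiers. They were few, 37 and 97 cells, and were compared with the other 3 neuron classes in a second fit that took classes of at least 25 cells per library. Of 101 members tested, 26 were higher (25.7%, against 10.3% of all 14271 genes) and 11 lower (10.9%, against 5.85%), and by CPM at least 2-fold in both libraries 19 were higher (7.79% of all genes) and 9 lower (4.76% of all genes). The median log2 fold change was 0.15 over members and 0.03 over all genes, so the typical member lay near the background. The erythroid marker sum of this class was 3.84 and 4880 CPM, and its part in the values below was not tested.

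The alpha2delta subunits, which carry calcium channels to the membrane and bind gabapentin-type drugs, took the largest part of the level. Cacna2d1 had 680.0 and 589 CPM in Cajal-Retzius cells, against 30.7 and 36.1 CPM in the other neurons (4.29 ± 0.17, adjusted p = 4.7e-143). Cacna2d2 had 488 and 272 CPM, against 4.71 and 11.2 CPM (8.14 ± 0.36, adjusted p = 5.5e-108). Calcium channel auxiliary subunits thus summed to 1295 and 984 CPM in this class, and Cacna2d1 alone was 52.5% and 59.9% of them.

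Among potassium channels, Kcnk9, an acid-sensitive two-pore domain channel, had 76.8 and 60.2 CPM in Cajal-Retzius cells and no UMI in the other neurons, at least 158-fold higher against 3 counts over that group. Kcnj5, a G-protein-gated inward rectifier better known from the heart and adrenal gland, had 57.6 and 45.5 CPM and no UMI in the other neurons, at least 119-fold higher. It was 68.2% and 79.5% of the inward rectifier UMIs of the class. Kcnip2, a calcium-binding partner of A-type channels, had 146 and 125 CPM, against 0 and 2.05 CPM (7.82 ± 0.53, adjusted p = 4.1e-47). The M-channel subunit Kcnq5 had 57.6 and 38.2 CPM, against 1.5 and 0.442 CPM (6.26 ± 0.78), while Kcnq3 was lower, with 30.7 and 4.41 CPM, against 35.7 and 56.1 CPM (-1.87 ± 0.47, adjusted p = 7.1e-04). The 2 libraries lay far apart for Kcnq3 in this class, and in library 1 the difference was small. The A-type channel Kcna4 (26.9 and 22.0 CPM, against 0.922 and 0.147 CPM) and the sodium-activated channel Kcnt1 (23.1 and 17.6 CPM, against 0.633 and 2.93 CPM) were also higher.

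Of 4 sodium channel beta subunits, which change gating and act in adhesion, 3 were higher in Cajal-Retzius cells. Lower members included Kcnk1, with no UMI in Cajal-Retzius cells in either library, against 62.2 and 62.5 CPM, which is at least 19.6-fold lower. Kcnip3 had 3.84 and 0 CPM, against 11.9 and 23.5 CPM (-4.07 ± 0.92), and Kcnmb4, a beta subunit of the large-conductance channel, had 3.84 and 1.47 CPM, against 19.8 and 30.9 CPM (-3.70 ± 0.73). Since 1 UMI was 3.84 CPM in library 1, these low levels are a single count there. Among partner genes 9 were higher and 3 lower. The leak channel Nalcn had 96.0 and 61.7 CPM, against 2.27 and 8.97 CPM (3.82 ± 0.40), and Fgf13, a sodium channel partner, had 11.5 and 5.88 CPM, against 55.4 and 83.2 CPM (-3.32 ± 0.43).

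Lhx6 interneurons numbered 30 and 133 cells, and 4 of 101 members were higher (3.96%, against 1.39% of all genes) and 2 lower (1.98%, against 1.09%) than in the other neurons. All 4 and both lower ones were at least 2-fold apart by CPM too (1.1% of all genes higher, 0.736% lower), and the median log2 fold change was 0.32 over members and -0.19 over all genes. Kcnip1, an A-type channel partner known from interneurons, had 84.8 and 61.5 CPM, against 13.4 and 16.4 CPM (3.77 ± 0.57, adjusted p = 1.1e-08), and Cacng4 had 84.8 and 74.7 CPM, against 27.5 and 30.6 CPM (1.30 ± 0.41, adjusted p = 0.036). The modifier subunits Kcnf1 and Kcnv1, which form no channel alone, had 14.1 and 13.2 CPM each, a single UMI in library 1. Lower were Kcnh7 with 28.3 and 13.2 CPM, against 136 and 124 CPM (-2.71 ± 0.51), and Cacna2d1 with 0 and 26.4 CPM, against 257 and 224 CPM (-2.49 ± 0.48), and both contrasts include the high levels of Cajal-Retzius cells. Markers of ganglionic-eminence interneurons summed to 4409 and 49200 CPM and microglia markers to 0 and 1186 CPM in this class, and the part of this difference in the result was not tested.

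**Figure D2:**
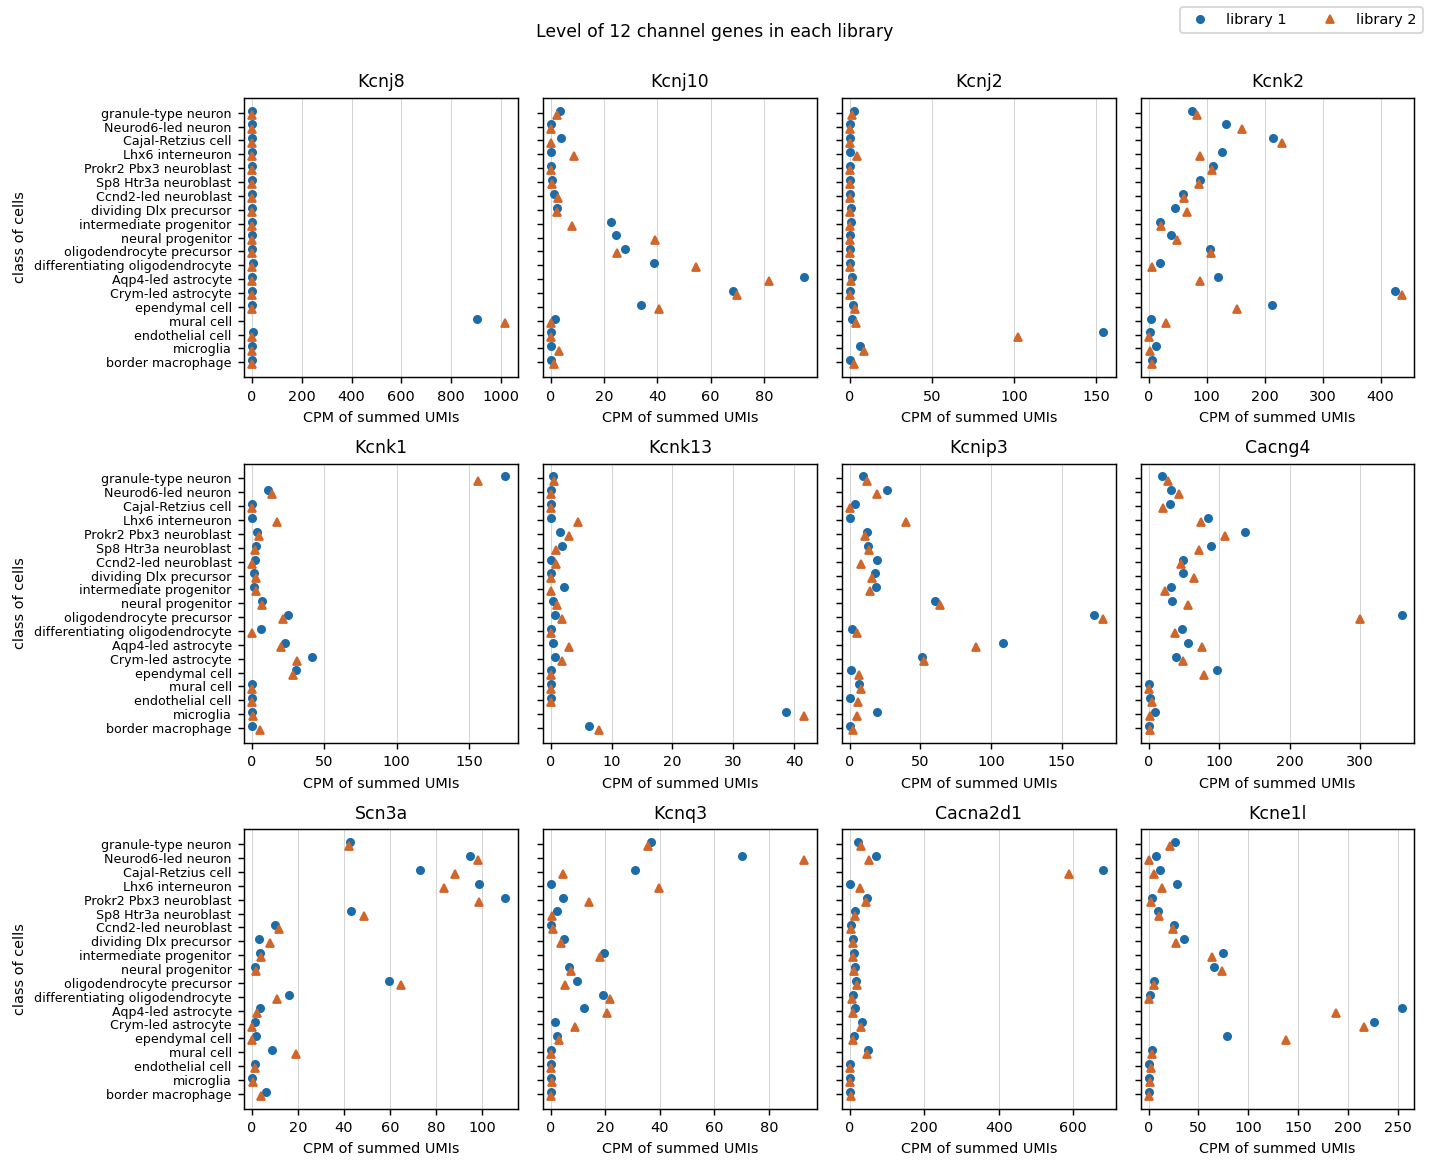
Level of 12 channel genes in 19 classes, CPM of summed UMIs on a linear axis; circles are library 1 and triangles library 2. The 2 libraries lie close for Kcnj8 in mural cells, Kcnk1 in granule-type neurons, Cacng4 and Kcnip3 in oligodendrocyte precursors and Kcnk13 in microglia, each above all other classes shown.

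Neurons differed from neuroblasts, the young migrating neurons, with single members of several families on each side. Against the 3 neuroblast classes, 17 of 93 members were higher in neurons (18.3%, against 6.79% of all genes) and 9 lower (9.68%, against 4.83%), with 15 and 6 by CPM at least 2-fold in both libraries (5.71% and 3.26% of all genes). The median log2 fold change was 0.13 over members and -0.07 over all genes. Kcnq3 had 53.5 and 64.3 CPM in neurons, against 2.22 and 5.02 CPM in neuroblasts (4.89 ± 0.30, adjusted p = 1.5e-57). Kcnk1 had 93.2 and 85.0 CPM, against 2.65 and 2.36 CPM (4.17 ± 0.46, adjusted p = 8.6e-18). This Kcnk1 value comes mostly from granule-type neurons, and with all 4 neuron classes the log2 fold change was 1.34 and not past the threshold (adjusted p = 1.0).

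Of 9 calcium channel alpha1 subunits 4 were higher in neurons and 0 lower, and of 7 auxiliary subunits 1 was higher and 3 lower. The R-type Cacna1e had 20.2 and 15.1 CPM, against 3.20 and 4.83 CPM (3.40 ± 0.52, adjusted p = 1.5e-09). The 1 higher auxiliary subunit, Cacna2d1, had 46.1 and 41.0 CPM, against 20.9 and 20.4 CPM (1.58 ± 0.21, adjusted p = 3.5e-12). Scn2a had 20.4 and 26.8 CPM, against 7.65 and 12.5 CPM (1.89 ± 0.33, adjusted p = 1.2e-07). The delayed rectifiers Kcnb2 (1.88 ± 0.30) and Kcna2 (1.77 ± 0.42) and the A-type Kcnd2 (1.55 ± 0.41) were higher as well. The axon-start gene Ank3 was higher as well: it had 214 and 231 CPM, against 56.0 and 52.0 CPM (2.52 ± 0.14).

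Of 5 gamma subunits and TARPs, 2 were lower in neurons and 1, Cacng2, was higher (26.7 and 37.0 CPM, against 22.4 and 20.3 CPM). Cacng5 had 2.33 and 0.883 CPM in neurons, against 16.6 and 23.3 CPM in neuroblasts (-3.59 ± 0.41, adjusted p = 1.5e-16), and Cacng4 had 25.8 and 35.6 CPM, against 91.1 and 74.8 CPM (-1.58 ± 0.15, adjusted p = 1.4e-23). Cacna2d3 had 11.1 and 10.8 CPM, against 21.6 and 19.3 CPM (-1.91 ± 0.52). Kcnip1 had 2.85 and 1.81 CPM, against 21 and 15.8 CPM (-3.10 ± 0.56). Kcnd3, an A-type channel, had 18.8 and 13.6 CPM, against 51.0 and 45.0 CPM (-1.17 ± 0.24, adjusted p = 9.7e-06). Stricter cell filters (a minimum of 1000 genes, a maximum of 5% mitochondrial UMIs) changed the classes on both sides. Prokr2 Pbx3 neuroblasts were no longer a class, and an Lhx6 interneuron class of 187 and 119 cells joined the neurons. Adarb2 and Runx1t1 were among the leading genes of that class and of the Prokr2 Pbx3 neuroblasts of the main clustering. Cacng5 was still called under these filters. Kcnd3 was 0.087, Kcnip1 -0.23, Cacna2d3 -0.60 and Cacng4 -0.77, and none of these 4 was called. Kcnip1, Cacna2d3 and Kcnd3 were not called either with all 4 neuron classes (-0.52, -0.64 and -0.97).

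The neuroblast classes were not alike. Prokr2 Pbx3 neuroblasts had 110.1 and 98.7 CPM of Scn3a, 136 and 108 CPM of Cacng4 and 91.1 and 75.3 CPM of Kcnd3, while Sp8 Htr3a neuroblasts had 43.1 and 48.8 CPM of Scn3a and 88.3 and 70.8 CPM of Cacng4. Ccnd2-led neuroblasts had 9.82 and 11.9 CPM of Scn3a and 49.1 and 45.8 CPM of Cacng4. The order of these 3 classes was the same in both libraries for Scn3a and for Cacng4, and was not tested. Cacna1c was the main alpha1 subunit by UMIs in Prokr2 Pbx3 neuroblasts (41.1% and 40.2% of alpha1 UMIs) and in Sp8 Htr3a neuroblasts (46.8% and 50%).

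Neural progenitors, the dividing cells, had lower levels of sodium and calcium channel genes than neuroblasts, with voltage-gated potassium channel genes on both sides. Of 93 members 13 were higher in progenitors (14.0%, against 18.6% of all genes) and 28 lower (30.1%, against 9.73%), with 10 and 27 by CPM at least 2-fold in both libraries (14.3% and 8.8% of all genes), and the median log2 fold change was -0.66 over members and 0.11 over all genes. Lower were 5 of 7 calcium channel auxiliary subunits, 3 of 5 sodium channel alpha subunits, and 3 of 9 alpha1 subunits, with 0 higher in each. Of 24 voltage-gated potassium channel alpha subunits 7 were lower and 6 higher. Scn3a had 1.22 and 1.55 CPM in progenitors, against 54.4 and 53.1 CPM in neuroblasts (-4.73 ± 0.30, adjusted p = 2.6e-54). Its partner beta subunit Scn3b had 1.63 and 1.55 CPM, against 30.9 and 29.0 CPM (-3.80 ± 0.31, adjusted p = 6.9e-33). Cacna1c had 2.44 and 1.24 CPM, against 40.2 and 39.4 CPM (-3.63 ± 0.31), and Cacnb3 had 6.37 and 5.88 CPM, against 64.7 and 65.4 CPM (-3.26 ± 0.18). Of 29 partner genes, 13 were lower and 2 higher.

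Among the members higher in progenitors, Kcnj10, the inward rectifier of astrocytes, had 24.3 and 39.3 CPM in progenitors, against 0.609 and 0.936 CPM in neuroblasts (6.38 ± 0.34, adjusted p = 3.3e-78). Kcne1l, an accessory potassium channel subunit of the KCNE family, had 65.6 and 73.9 CPM, against 12.8 and 12.5 CPM (2.90 ± 0.15, adjusted p = 4.6e-78), and Kcnip3 had 60.6 and 64.0 CPM, against 15 and 10.7 CPM (2.26 ± 0.14, adjusted p = 1.1e-54). All of these were at least 2-fold apart in both libraries.

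The sodium channel alpha family changed its makeup from class to class. Scn8a, the alpha subunit of mature axon starts and nodes, was 86.6% and 61.7% of the family's UMIs in neural progenitors, 76.2% and 75.0% in intermediate progenitors, 73.6% and 60.2% in dividing Dlx precursors and 58.7% and 53.8% in Ccnd2-led neuroblasts. Scn8a was also 66.7% and 69.7% in Aqp4-led astrocytes. Its level was 15.7 and 11.4 CPM in neural progenitors, 23.9 and 21 CPM in Sp8 Htr3a neuroblasts and 37.3 and 28.9 CPM in Prokr2 Pbx3 neuroblasts. Scn3a was 61.5% and 57.7% in Prokr2 Pbx3 neuroblasts, 61.0% and 54.5% in Neurod6-led neurons, 50.2% and 47.8% in granule-type neurons and 44.0% and 47.7% in oligodendrocyte precursors. Scn2a was 21.2% and 23.4% in granule-type neurons and 32.4% and 46.5% in Cajal-Retzius cells. In ependymal cells the family was mostly Scn7a, a sodium-sensing relative, with 57% and 68.2%. These shares have counting intervals only and were not tested.

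**Figure D3:**
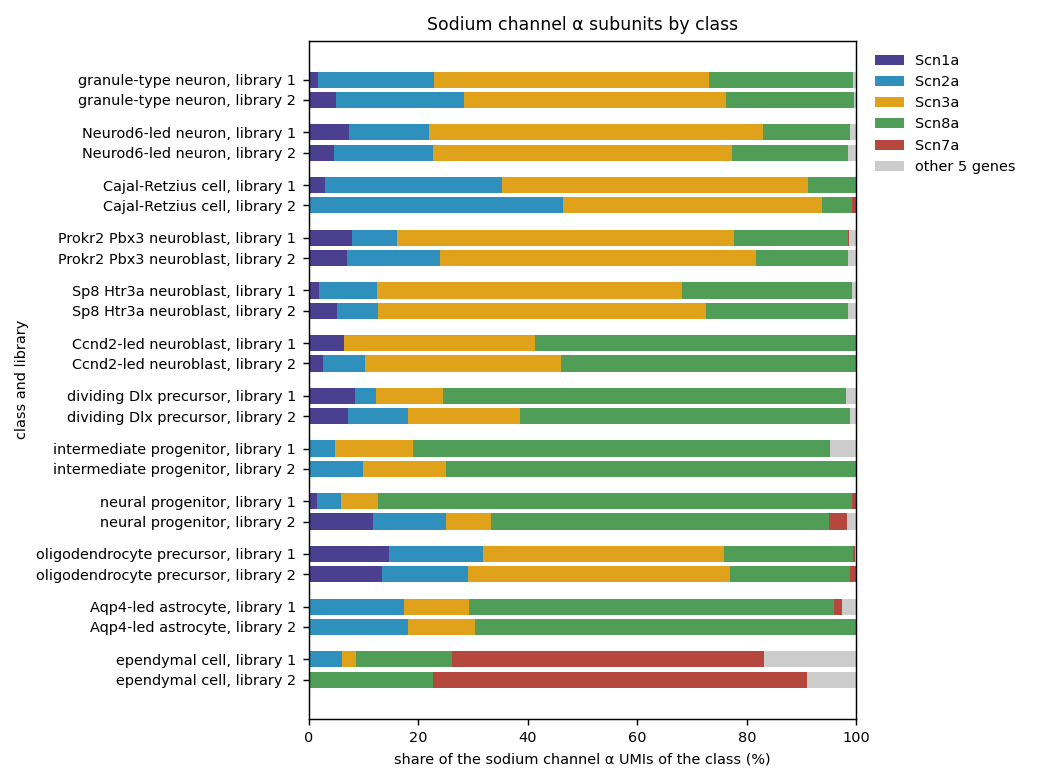
Share of each subunit in the UMIs of the 10 sodium channel alpha genes (percent, stacked to 100), 1 bar per library in 12 classes with at least 20 such UMIs per library. Scn8a fills most of the bars of the progenitor classes and of Aqp4-led astrocytes, and Scn7a most of those of ependymal cells. Scn3a is the largest part in Prokr2 Pbx3 and Sp8 Htr3a neuroblasts, the neuron classes shown and oligodendrocyte precursors.

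Oligodendrocyte precursors, dividing glia that receive synapses from neurons, had a broad channel set. Of 93 members 45 were higher than in the other classes by the fitted fold (48.4%, against 11.9% of all genes), and 22 by CPM at least 2-fold in both libraries (6.05% of all genes). edgeR's quasi-likelihood test called 0 lower (3.14% of all genes, or 2.91% with the 2-fold limit on CPM), with 0 at an unadjusted p under 0.05, and DESeq2 called 5 lower, with 7 at an unadjusted p under 0.05. Members had a median log2 fold change of 1.77, and all genes 0.06. The gap between 45 and 22 comes with genes such as Kcnk2, called at 1.37 ± 0.11 with 106 and 107 CPM in precursors, against 90.3 and 90.3 CPM on average in the other classes.

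The largest differences among named members were in the A-type channel Kcnd2, the sodium channel Scn1a, the calcium-activated channel Kcnma1, the TARP Cacng4 and the A-type partner Kcnip3. Cacng4 had 359 and 299 CPM in precursors, against 42.9 and 43.5 CPM in the other classes (3.79 ± 0.09), the highest of the 19 classes in both libraries. With cells thinned to 2000 UMIs, 48.9% and 43.1% of precursors had a Cacng4 UMI, against 0 of 68 (which allows up to 4.41%) and 0.307% of 1631 microglia, which should lack it. Precursors had a median of 3818 and 3695.5 UMIs and microglia of 3053 and 3670.0 UMIs, and cells under 2000 UMIs were left out (111 and 56 precursors, 23 and 318 microglia). Unthinned, the precursor shares were 70.8% and 63.0%. Kcnip3 had 173 and 179 CPM, against 24.3 and 21.7 CPM (3.71 ± 0.10, adjusted p = 2.3e-291), and made up 76.6% and 76.5% of the potassium channel accessory UMIs. Kcnd2, the pore with which such partners assemble, had 91.6 and 76.8 CPM, against 6.69 and 6.50 CPM (5.25 ± 0.15, adjusted p = 1.7e-254). Both Dpp genes, the other partners of A-type channels, were higher: Dpp10 had 33.2 and 31.2 CPM, against 1.75 and 1.69 CPM (5.98 ± 0.28), and Dpp6 had 49.7 and 52.3 CPM, against 12.1 and 11.4 CPM (3.28 ± 0.16). All 4 of Kcnip3, Kcnd2, Dpp10 and Dpp6 were over 2-fold higher in both libraries.

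Of 5 sodium channel alpha subunits 4 were higher. Scn1a, the main alpha subunit of inhibitory neurons later in life, had 19.8 and 18.2 CPM in precursors, against 2.36 and 2.41 CPM (5.06 ± 0.33, adjusted p = 2.6e-52), and Scn3a had 59.6 and 64.9 CPM, against 22.1 and 22.7 CPM (3.17 ± 0.14, adjusted p = 1.2e-115). Of 24 voltage-gated potassium channel alpha subunits, 14 were higher, 8 of them by CPM too, among them Kcna2 (25.1 and 23.4 CPM, against 9.20 and 7.44 CPM) and Kcna6 (17.3 and 18.2 CPM, against 5.08 and 5.58 CPM). The large-conductance channel Kcnma1 had 13.7 and 10.0 CPM, against 2.0 and 2.04 CPM (3.88 ± 0.35). Of 9 alpha1 subunits, 3 were higher by the fitted fold and 0 by CPM. The leak channel gene Nalcn had 30.7 and 33.4 CPM, against 5.31 and 4.18 CPM (4.09 ± 0.25), and 14 of 29 partner genes were higher.

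Differentiating oligodendrocytes, which had markers of committed and myelinating cells, had lower levels of many channel genes than precursors. Of 101 members 3 were higher than in precursors (2.97%, against 5.57% of all genes) and 41 lower (40.6%, against 11.8%), with 2 and 38 by CPM at least 2-fold in both libraries (3.6% and 10.2% of all genes). Over members the median log2 fold change was -1.41, against -0.12 over all genes. The class had 353 and 27 cells, and 1 UMI was 5.44 CPM in library 2, so many of its values there are 0 or a single count. Kcnip3 had 1.49 and 5.44 CPM in differentiating oligodendrocytes, against 173 and 179 CPM in precursors (-6.42 ± 0.34, adjusted p = 1.6e-77). Kcnd2 had 5.61 and 21.8 CPM, against 91.6 and 76.8 CPM (-3.44 ± 0.28, adjusted p = 2.1e-32), Kcnd3 had 4.48 and 0 CPM, against 47.8 and 53.1 CPM (-3.35 ± 0.34), and Cacng4 had 47.8 and 38.1 CPM, against 359 and 299 CPM (-2.61 ± 0.17).

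The sodium channel genes of precursors were lower too: Scn1a had 0.747 and 0 CPM in differentiating oligodendrocytes, against 19.8 and 18.2 CPM (-4.39 ± 0.69), and Scn3b had 1.12 and 5.44 CPM, against 19.6 and 20 CPM (-3.56 ± 0.51). Scn8a was not called, with 33.6 and 32.6 CPM, against 31.8 and 30.1 CPM. Of the 3 higher members Kcnq3 had 19.1 and 21.8 CPM, against 9.43 and 5.19 CPM (1.5 ± 0.35, adjusted p = 1.8e-04). Among partner genes Nfasc, an adhesion gene of nodes of Ranvier and of myelin loops, had 694 and 647 CPM, against 32.5 and 33.4 CPM (4.50 ± 0.15).

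**Figure D4:**
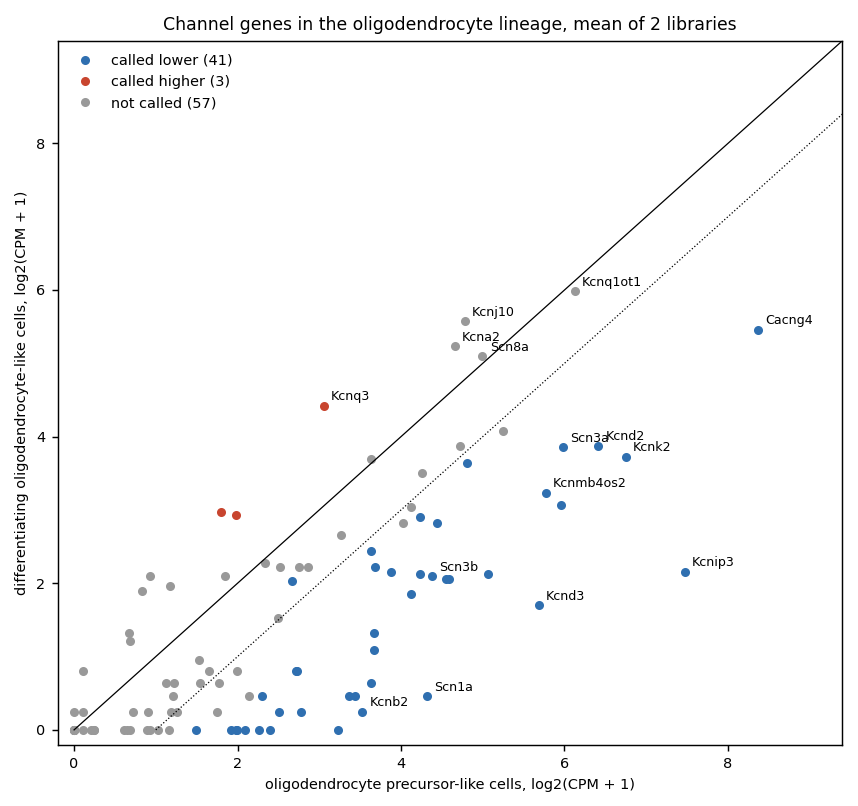
Levels of 101 channel genes in differentiating oligodendrocytes and in oligodendrocyte precursors on log2(CPM + 1) axes, mean of 2 libraries; colours mark 41 genes called lower, 3 called higher and 57 not called, and the dotted line marks 2-fold lower. Kcnip3, Cacng4, Kcnd2 and Kcnd3 lie far on the precursor side.

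Astrocytes had higher levels of several potassium channel genes, while the share of members called lower was near that of all genes. The 2 astrocyte classes, led by Aqp4 (519 and 376 cells) and by Crym (708 and 162 cells), had 23 of 93 members higher than the other classes (24.7%, against 16.1% of all genes) and 4 lower (4.3%, against 4.85%). By CPM at least 2-fold in both libraries, 12 were higher (9.35% of all genes) and 4 lower (4.16% of all genes), and the median log2 fold change was 0.68 over members and 0.06 over all genes. Among inward rectifiers 3 of 8 were higher, and among accessory subunits 4 of 9.

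Kcnj10 encodes the channel with which astrocytes take up potassium. It had 81.6 and 75.8 CPM in astrocytes, against 8.43 and 8.86 CPM in the other classes (5.34 ± 0.17, adjusted p = 4.4e-209), and was 70.7% and 71.2% of inward rectifier UMIs in Aqp4-led and 87.1% and 93.0% in Crym-led astrocytes. After thinning to 2000 UMIs, 15.1% and 15.1% of Aqp4-led astrocytes had a Kcnj10 UMI, against 0 of 68 and 0.429% of 1631 microglia, and unthinned 36.4% and 34.6% of the astrocytes. Kcne1l had 239.9 and 202 CPM, against 24.1 and 26.8 CPM (4.71 ± 0.10), Kcnk2 had 272 and 263 CPM, against 65.5 and 66.8 CPM (2.60 ± 0.09, adjusted p = 4.7e-182), and Kcna2 had 41.2 and 33.6 CPM, against 5.76 and 4.85 CPM (4.37 ± 0.21). The astrocyte values were above the others in both libraries for each of them. Lower were Scn3a (2.42 and 0.985 CPM, against 27.6 and 28.8 CPM), Cacnb3 (4.30 and 3.34 CPM, against 28.2 and 27.5 CPM), Cacna1b (0.561 and 0.492 CPM, against 6.25 and 7.06 CPM) and Cacna1c (3.17 and 5.84 CPM, against 20.8 and 19.5 CPM), the last with an adjusted p of 1.0 under stricter cell filters.

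The 2 astrocyte classes differed from each other. Of 93 members 13 were higher in Crym-led astrocytes (14.0%, against 6.31% of all genes) and 10 lower (10.8%, against 4.2%), with 11 and 7 by CPM at least 2-fold in both libraries (5.64% and 2.74% of all genes); the median log2 fold change was -0.25 over members and 0.00 over all genes. Kcnk2, a mechano- and lipid-gated two-pore domain channel, had 425 and 436 CPM in Crym-led astrocytes, against 119 and 89.1 CPM in Aqp4-led astrocytes (1.88 ± 0.13, adjusted p = 1.4e-44), the highest of the 19 classes. Cacng5 had 17.2 and 19.2 CPM, against 0.743 and 0.985 CPM (4.23 ± 0.58, adjusted p = 1.6e-11), and Kcnn2, a small-conductance channel, had 39.4 and 48.9 CPM, against 16.0 and 11.3 CPM (1.42 ± 0.24).

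Lower in Crym-led astrocytes were Kcnj16, which assembles with Kcnj10, with 1.87 and 1.75 CPM, against 23.8 and 16.7 CPM (-3.48 ± 0.54, adjusted p = 3.8e-09), Kcnmb4 with 5.25 and 6.98 CPM, against 45.7 and 52.7 CPM (-3.23 ± 0.30, adjusted p = 1.3e-24), and Kcnd2 with 6.75 and 6.98 CPM, against 27.5 and 27.1 CPM (-2.14 ± 0.32). Kcnmb4os2 overlaps Kcnmb4 on the other strand, so counts of the pair are uncertain. Kcnj10 itself was not called, since its fold was under 2: it had 68.2 and 69.8 CPM, against 95 and 81.7 CPM (-0.52 ± 0.16, adjusted p = 0.011). The choroid plexus marker list summed to 6472 and 1060 CPM in Crym-led astrocytes, against 11.5 and 4.43 CPM in Aqp4-led astrocytes, with 8 and 5 of its 8 genes seen, and Ttr led that cluster. Kcnj13, a known choroid plexus channel, was called at 6.00 and 3.49 CPM, against 0.743 and 1.48 CPM (2.27 ± 0.77). The part of choroid plexus RNA in these results was not tested.

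Mural cells, the pericytes and smooth muscle of vessels, had the largest difference of any member. Kcnj8, the pore of the vascular ATP-sensitive potassium channel, had 904 and 1017 CPM in mural cells, against 0.692 and 0.0576 CPM on average in the other classes, a log2 fold change of 12.07 ± 0.14. Abcc9, the sulfonylurea receptor subunit with which it assembles, had 810.1 and 1009.8 CPM, against 0.492 and 0.174 CPM (11.84 ± 0.15). The genes are neighbours, 16.2 kb apart on the minus strand of chromosome 6 (Kcnj8 142564837 to 142571614, Abcc9 142587862 to 142702315, mm10). Kcnj8 was 99.3% and 98.9% of inward rectifier UMIs of mural cells. After thinning to 2000 UMIs, 74.1% of 502 mural cells (95% exact interval 70.0 to 77.9) and 75.0% of 64 (62.6 to 85.0) had a Kcnj8 UMI, against 0 of 94 and 0 of 118 endothelial cells, which allows up to 3.19% and 2.54%, and 0.0613% of 1631 microglia in library 2. The median depth was 3882.5 and 3674 UMIs in mural cells and 5914 and 4476 UMIs in endothelial cells. Unthinned, the mural shares were 81.8% and 79.7%.

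Within the mural class both genes were highest in the pericyte cluster. Kcnj8 had 1067 and 1233 CPM in pericytes (460 and 58 cells), against 48.4 and 21.5 CPM in the smooth muscle cluster (68 and 11 cells), and Abcc9 had 962 and 1228 CPM, against 11.4 and 0 CPM. Kcnmb1, the smooth muscle beta subunit of the large-conductance channel, had 47.9 and 55.8 CPM in pericytes, against 37.0 and 108 CPM in smooth muscle. These clusters were not tested against each other. Both clusters share the class below, where pericyte markers summed to 21433 and 22744 CPM.

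Kcnmb1 in mural cells had 46.1 and 65.0 CPM, against 0.622 and 0.625 CPM in the other classes (8.92 ± 0.43, adjusted p = 6.7e-92). Outside mural cells it was found in ependymal cells, at 8.15 and 9.38 CPM, and since Kcnmb1 overlaps Kcnip1 on the other strand its counts are uncertain. The starts of the 2 mural subunit genes and of Kcnmb1, which were high together, are printed with that of the astrocyte gene Kcnj10 for comparison, as 250 bases before to 50 bases after the gene's start in RefSeq on GRCm38.p6, 5′ to 3′ on the gene's strand, with CG dinucleotides in capitals. The windows are chr6:142571565-142571864 (minus strand) for Kcnj8, chr6:142702225-142702524 (minus) for Abcc9, chr11:33962763-33963062 (plus) for Kcnmb1 and chr1:172340960-172341259 (plus) for Kcnj10.
Kcnj8: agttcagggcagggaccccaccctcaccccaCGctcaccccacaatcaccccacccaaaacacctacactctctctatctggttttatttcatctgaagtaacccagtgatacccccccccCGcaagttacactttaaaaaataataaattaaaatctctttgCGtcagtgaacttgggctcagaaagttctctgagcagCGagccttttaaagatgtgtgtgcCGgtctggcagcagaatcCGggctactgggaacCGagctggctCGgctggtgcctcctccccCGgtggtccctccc
Abcc9: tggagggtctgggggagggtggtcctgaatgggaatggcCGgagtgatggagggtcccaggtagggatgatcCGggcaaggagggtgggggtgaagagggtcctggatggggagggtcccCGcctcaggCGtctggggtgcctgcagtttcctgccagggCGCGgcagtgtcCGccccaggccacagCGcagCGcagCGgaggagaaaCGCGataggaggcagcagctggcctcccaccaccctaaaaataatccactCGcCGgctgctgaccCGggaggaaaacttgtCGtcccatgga
Kcnmb1: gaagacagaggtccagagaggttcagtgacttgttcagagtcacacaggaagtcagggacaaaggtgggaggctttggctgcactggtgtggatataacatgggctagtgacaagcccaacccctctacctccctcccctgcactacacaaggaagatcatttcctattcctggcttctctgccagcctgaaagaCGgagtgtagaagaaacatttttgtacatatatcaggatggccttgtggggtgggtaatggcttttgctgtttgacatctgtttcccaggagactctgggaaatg
Kcnj10: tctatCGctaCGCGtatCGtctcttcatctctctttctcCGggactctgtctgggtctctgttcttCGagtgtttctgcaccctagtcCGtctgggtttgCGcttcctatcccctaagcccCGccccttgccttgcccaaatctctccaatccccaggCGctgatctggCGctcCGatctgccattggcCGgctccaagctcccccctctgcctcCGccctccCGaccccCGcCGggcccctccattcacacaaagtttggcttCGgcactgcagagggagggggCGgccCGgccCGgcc
They hold 9, 16, 1 and 21 CG dinucleotides in that order, against a median of 7 over the 32851 promoters of the table and of 9 over 138 promoters of the 102 members that matched by symbol; windows with at most 5 made up 43.6% of all promoters and 31.9% of those of members. None of the 7 motifs named next, searched on both strands, was found in these 4 windows. A TATA motif (TATAAA) was in 13.6% of all promoters and in 7 of 138 of members, a NeuroD-type E-box (CAGATGG) in 5.30% and in 7, a SOX-type motif (ACAATGG) in 3.66% and in 2, a PU.1-type motif (GAGGAAGT) in 3.20% and in 0, a CRE (TGACGTCA) in 1.79% and in 0, and the right and left parts of RE1 (GGACAGCG and TTCAGCACC) in 1.26% and in 2, and in 0.371% and in 1. No motif searched contains another, and a match is a description of the letters only.

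In all, 13 of 93 members were higher in mural cells (14.0%, against 13.4% of all genes) and 13 lower (14.0%, against 8.29%), with 11 and 12 by CPM at least 2-fold in both libraries (8.54% and 7.23% of all genes). The median log2 fold change was -1.35 over members and -0.07 over all genes, so the count of higher members was near the background. Kcne4, an accessory subunit that inhibits potassium channels, had 26.0 and 23.0 CPM, against 0.194 and 0 CPM (8.0 ± 0.54, adjusted p = 4.5e-48, but 0.29 by DESeq2), and 21.1 and 17.6 CPM in fibroblasts, which were not in the fit. The contraction-related L-type pore Cacna1c had 51.6 and 42.1 CPM, against 16.4 and 16.2 CPM (2.76 ± 0.21, adjusted p = 1.2e-36), and Cacna2d1 had 48.9 and 45.9 CPM, against 17.8 and 16.2 CPM (2.42 ± 0.21), a call that was lost when classes of 25 cells entered (2.06), where its CPM lay below the mean of the others, Cajal-Retzius cells included. Scn2b, a sodium channel beta subunit, had 10.0 and 15.3 CPM in mural cells, against 0.738 and 0.419 CPM, and the T-type Cacna1h had 16.9 and 11.5 CPM, against 6.12 and 5.87 CPM.

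Lower in mural cells were Scn8a and Kcnc1, with no UMI in mural cells, against 17.9 and 17.7 CPM and 13.8 and 16.2 CPM in the other classes, at least 14.5-fold and 12.3-fold lower. Cacng4 had 0.913 and 0 CPM, against 66.8 and 63.4 CPM (-5.22 ± 0.57), and Kcnk2 had 4.57 and 30.6 CPM, against 97.1 and 95.4 CPM (-2.57 ± 0.34). The libraries lay far apart for Kcnk2, and the astrocyte list summed to 28.3 and 84.2 CPM and the neuroblast list to 122 and 348 CPM in this class. Their part in this result was not tested.

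Microglia, the resident macrophages of the brain, had only 6 members at 10 CPM or more in both libraries, the noncoding Kcnq1ot1 among them. Of their 7 higher members, 3 were two-pore domain channels. Of 93 members 7 were higher (7.53%, against 15.7% of all genes) and 15 lower (16.1%, against 9.89%), with 6 and 14 by CPM at least 2-fold in both libraries (7.95% and 9.36% of all genes), and the median log2 fold change was -2.20 over members and 0.02 over all genes. Kcnk13, the channel known to hold the microglial resting potential, had 38.7 and 41.6 CPM in microglia, against 0.947 and 1.36 CPM in the other classes (6.72 ± 0.32, adjusted p = 1.2e-95). Its relative Kcnk12 had 35.5 and 24.5 CPM, against 3.21 and 2.04 CPM (4.67 ± 0.29, adjusted p = 1.9e-56), and Kcnk6, which has been tied to potassium efflux in macrophages, had 16.1 and 21.6 CPM, against 1.59 and 1.66 CPM (6.90 ± 0.42, adjusted p = 4.4e-60). Border macrophages, 1 of those other classes, had Kcnk6 at the level of microglia, 18.8 and 19.7 CPM (3 and 15 UMIs). Their Kcnk13 was at 6.26 and 7.88 CPM (1 and 6 UMIs). Kcnk13 and Kcnk12 made up 36.4% and 45.5%, and 33.3% and 26.8%, of the two-pore domain UMIs of microglia. After thinning to 2000 UMIs, 7.35% and 8.46% of microglia had a Kcnk13 UMI, against 0.0674% and 0.167% of oligodendrocyte precursors, and 4.41% and 4.60% had a Kcnk6 UMI, against 0 of 1484 (up to 0.202%) and 0.167% of 598 precursors. The unthinned microglial shares of Kcnk13 were 11% and 15.9%.

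The L-type alpha1 subunit Cacna1d had 45.1 and 43.6 CPM in microglia, against 18.0 and 17.2 CPM (2.28 ± 0.16, adjusted p = 1.5e-47), and was 60.9% and 75.1% of alpha1 UMIs. Ependymal cells, 1 of the other classes, had more Cacna1d than microglia, 58.9 and 46.9 CPM. Among partner genes the proton channel Hvcn1, which serves the oxidative burst, had 32.2 and 26.6 CPM, against 2.68 and 1.19 CPM (6.05 ± 0.34). The larger microglia cluster, 76 and 1432 cells, was led by Spp1, Gdf15 and Ccl4, genes of activated or stressed cells, and library 1 gave only 91 microglia.

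The lower calls of microglia need a limit beside them. Kcnk2 had 12.9 and 1.82 CPM in microglia, against 96.5 and 97.3 CPM (-3.95 ± 0.42), Cacna2d1 had 0 and 0.243 CPM, against 21 and 19.2 CPM (-5.00 ± 0.70), and Scn3a had 0 and 0.486 CPM, against 26.1 and 27.0 CPM (-3.66 ± 0.51). A low-UMI cluster of 33 and 2311 cells with microglial genes was left unnamed. With it included, 1 member was lower in place of 15, Cacna2d1 was 0.34 and Scn3a 0.35 on the log2 scale, and Kcnd3, Cacnb4, Cacng4, Kcnmb4 and Kcnmb4os2 were not called either. The higher calls of Kcnk13, Kcnk12, Kcnk6 and Cacna1d did not change under any of the alternatives tried.

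**Figure D5:**
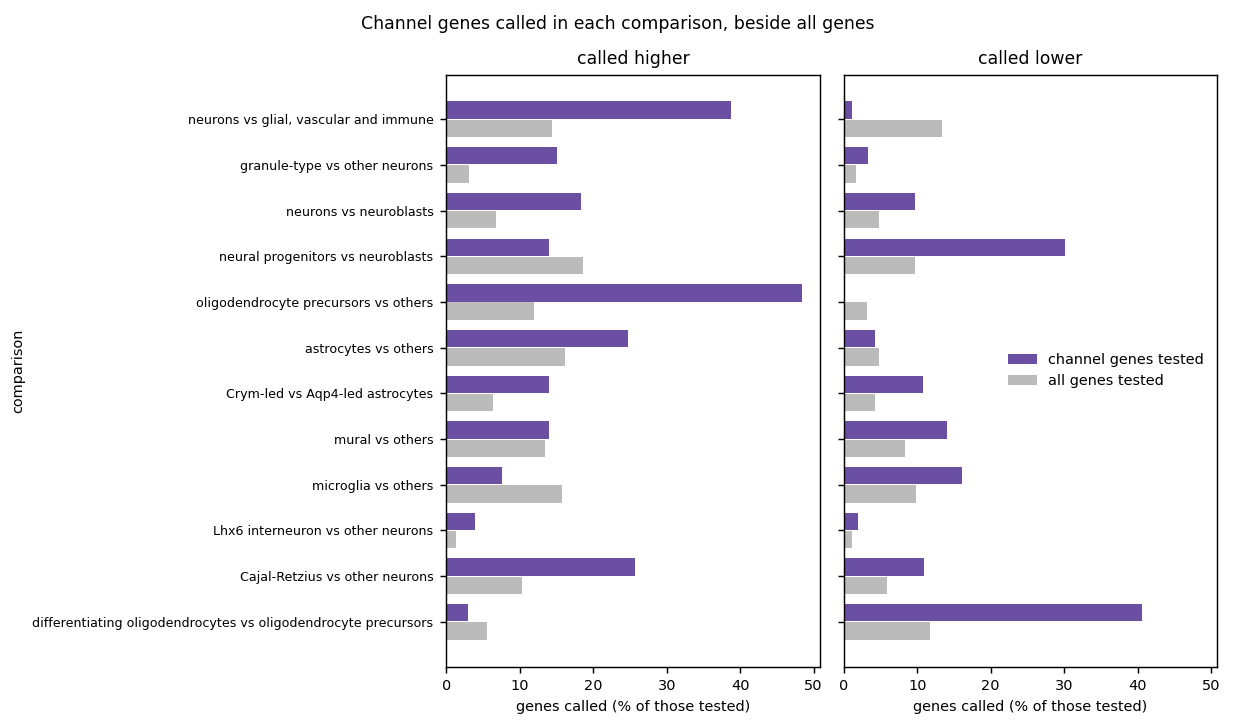
Percent of channel genes and of all genes tested that were called higher and lower in 12 comparisons; purple marks are channel genes and grey marks all genes. The largest gap for higher calls is that of oligodendrocyte precursors, 48.4% against 11.9%, and for lower calls that of differentiating oligodendrocytes, 40.6% against 11.8%.

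Endothelial and ependymal cells were not given a comparison of their own, and their values are a description. Endothelial cells had Kcnj2, the strong inward rectifier of capillaries, at 154 and 103 CPM, which was 95.1% and 94.9% of their inward rectifier UMIs. The next of the 19 classes was microglia, at 6.45 and 8.50 CPM. After thinning, 22.3% and 16.9% of endothelial cells had a Kcnj2 UMI (43.6% and 37.8% unthinned), against 0.199% and 0 of 64 mural cells. They also had Cacna1e at 35.8 and 37.4 CPM. In vessels the 2 cell types thus had unlike inward rectifiers by level: Kcnj8 was at 904 and 1017 CPM in mural cells and at 5.31 and 0 CPM in endothelial cells, and Kcnj2 at 1.37 and 3.83 CPM in mural cells.

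Ependymal cells, the ciliated lining of the ventricles, had several channels found at only a few UMIs elsewhere. The L-type alpha1 subunit Cacna1s, best known from skeletal muscle, had 80.5 and 40.6 CPM in ependymal cells and at most 0.971 CPM in either library of any other class. Scn7a had 40.7 and 46.9 CPM there, against at most 1.48 CPM elsewhere. The intermediate-conductance calcium-activated Kcnn4 had 36.9 and 50 CPM, Kcnh3 had 19.6 and 21.9 CPM, Kcnk7 had 21.1 and 18.8 CPM and Scn4b had 28.3 and 12.5 CPM. Kcnj16 had 24.0 and 53.1 CPM, with 23.8 and 16.7 CPM in Aqp4-led astrocytes. Kcnk2 had 213 and 153 CPM and Kcne1l was 73.3% and 78.6% of the potassium channel accessory UMIs. These genes were singled out after their values were seen; library 2 gave only 50 ependymal cells.

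Kcnk2 ran through nearly all neural classes and was also found in fibroblasts, at 158 and 105 CPM (42 and 8 cells). It had 425 and 436 CPM in Crym-led astrocytes, 215 and 229 CPM in Cajal-Retzius cells, 133 and 161 CPM in Neurod6-led neurons, 111 and 109 CPM in Prokr2 Pbx3 neuroblasts, 106 and 107 CPM in oligodendrocyte precursors, 60.1 and 61.1 CPM in Ccnd2-led neuroblasts and 19.9 and 20.8 CPM in intermediate progenitors, against 2.66 and 0 CPM in endothelial cells. Intermediate progenitors had instead Cacna1a at 91.2 and 75.4 CPM, 82.5% and 79.5% of their alpha1 UMIs. Of the 139 members 93 passed the count filter and were tested in the fit of 16 classes, and 101 in that of 19 classes. The rest had too few counts or, for 3 of them, no UMI in either library, and differences in them were not detectable at this depth.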

How the data were processed

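The authors' deposited files hold counts: whole-number UMIs per gene and cell barcode, not normalised, per the file headers and the values. The submitters' processing notes name Cell Ranger 6.1.2 and mm10, and sequencing went to 700 M raw reads per sample, per the labels. The lowest barcode held 500 UMIs. Everything after the counts was computed here. The members and all gene lists were chosen with earlier results of these data known.

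Barcodes were kept from 500 genes upward if mitochondrial UMIs did not pass 10%, and the 6% with the highest Scrublet scores were removed per library. Cells were scaled to 10000 UMIs, and 2000 variable genes (without members, partner genes, ribosomal and mitochondrial genes), 30 principal components, 15 neighbours and Leiden resolution 1 gave 29 clusters (scanpy 1.11.5, igraph 0.11.9, Python 3.11.15). They were named from 23 marker lists by scoring limits set after seeing the data. For each class, the UMIs of a library were added up and tested with edgeR 4.0.16 in R 4.3.3 (TMM scaling, filterByExpr, quasi-likelihood F test, two-sided, Benjamini-Hochberg adjustment over all genes tested), with the library as a block. The replicate numbers pair the sums because all classes of 1 number come from 1 library. Genes used to cluster or to name the cells were not tested. The SE is the log2 fold change divided by the root of its F statistic. The main fit took 16 classes of at least 40 cells per library (15 residual degrees of freedom); a second took 19 classes of at least 25 cells (18 degrees of freedom). The design asked for each neuron class against the others; only granule-type against Neurod6-led neurons could be run in the main fit, so Cajal-Retzius cells and Lhx6 interneurons were compared in the second. The comparisons of a class with all other classes share most of their sums. A group's CPM is the mean over its classes. Fold changes against a group with 0 counts are bounds set at 3 counts over the group. Intervals are exact Clopper-Pearson intervals at 95% and cover counting error only.

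Named by rule were, in each comparison, the 8 members with the largest fold change in each direction among those called with at least 10 CPM on the higher side in both libraries, the 6 members with the highest mean CPM in each class, and members given as shares; other genes named were chosen after their values were seen. Alternatives were DESeq2 1.42.0, other size factors, no low-count filter, doublets kept, stricter cell filters, resolution 2, other cell limits, no block and each library left out. The test was checked on simulated data. Some genes are not reported or plotted by name here. Gene sequences were taken from RefSeq on GRCm38.p6.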

Additional observations from a re-analysis of the deposited data

How the results depend on the processing

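Of 93 named results refitted 898 times in all, 864 refits kept the direction and the call, 29 lost the call and 5 reversed, which touched 21 results. The reversed values were Kcnma1 -0.16 and Kcnn3 1.52 (granule-type neurons, at least 25 cells per library), Kcnd3 0.087 (neurons against neuroblasts, stricter cell filters), and Cacna2d1 0.34 and Scn3a 0.35 (microglia with the low-UMI cluster). Without the replicate block every count of calls was the same except members lower in neurons than in neuroblasts, 8 in place of 9, and all 93 named results kept their call. Members lower in neurons than in glial, vascular and immune classes (1) were 2 by DESeq2, with doublets kept or with stricter cell filters, and 0 without the low-count filter, at resolution 2 or with classes of 25 cells. Granule-type neurons had 6 higher (14) by DESeq2, and lower (3) 5 with RLE factors, doublets kept or stricter filters, 15 at resolution 2 and 14 with classes of 25 cells; without 1 replicate, 5 to 7 members were at least 2-fold lower by CPM. Neurons against neuroblasts had 28 higher (17) at resolution 2 and 3 lower (9) with stricter filters. Oligodendrocyte precursors had 22 higher (45) by CPM, and lower (0) 5 by DESeq2 and 1 with doublets kept. Astrocytes had 12 higher (23) by CPM, and lower (4) 11 by DESeq2 and 7 with doublets kept. Mural cells had 20 lower (13) by DESeq2. Microglia had lower (15) 43 by DESeq2, 23 with doublets kept and 1 with the low-UMI cluster. Shares moved to 63.6% for Scn3a in Prokr2 Pbx3 neuroblasts and 49.3% for Scn3a in Neurod6-led neurons (resolution 2), 23.8% for Scn2a in granule-type neurons (stricter filters), 74.5% (doublets kept) and 74.0% (resolution 2) for Kcnj10 in Aqp4-led astrocytes, and 98.7% for Kcnj8 in mural cells (doublets kept). The cause of these moves was not tested. The median of all genes shifted by -0.17 with RLE factors and -0.18 with DESeq2 for granule-type neurons, by -0.20 and -0.16 for microglia, and by 0.13 with DESeq2 for neurons against neuroblasts. The Scn3a share of Prokr2 Pbx3 neuroblasts was not run under stricter filters, where the class was absent.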
